A study of Mus musculus with 32 samples.

Results

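Respiratory complex I was followed here through the nuclear genes of its subunits, taken as every gene whose symbol begins with Nduf, then a, b, c, s or v, then a digit. The rule matched 36 of the 24646 genes in each of 4 expression tables, one each for liver, epididymal white fat (eWAT), inguinal white fat (iWAT) and brown fat (BAT). Of the 36, 34 are subunits of complex I, 7 of them core subunits and 27 supernumerary subunits. The remaining 2 carry the old family name only: *Ndufa4*, whose protein is now counted with complex IV, and its paralogue *Ndufa4l2*. *Ndufab1*, the acyl carrier subunit, falls outside the rule and was set beside the 36. *Ndufs5* and *Ndufb1*, which the rule would match, were not among the gene symbols of these data and so were not analysed here.

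RNA came from male C57BL/6J mice aged 20 weeks that had eaten a high-fat diet (HFD) for 3 months and were fasted overnight before tissue collection. Whole-body *Gpr146* knockout mice were compared with their wild-type littermates, with 4 mice per genotype and 1 Affymetrix Mouse Gene 2.1 ST array per mouse and tissue. The array carries probes along the exons of each gene, so a value stands for the transcript as a whole. All values below are log2 expression values as the authors deposited them, and a difference is the knockout mean minus the wild-type mean on that scale. The titles of the 4 knockout liver samples name the wild type, whereas source, description and genotype give the knockout, and the latter was followed. In the fat depots a lower number of one cell type and less RNA per cell of it cannot be told apart.

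Complex I takes electrons from NADH, passes them through a chain of iron-sulfur clusters to ubiquinone, and pumps protons across the inner mitochondrial membrane. Its parts are built separately. The N module binds and oxidises NADH, the Q module reduces ubiquinone, and the membrane arm, with a proximal and a distal part, moves the protons. The genes of 7 membrane arm subunits lie in mitochondrial DNA (mtDNA), and all other subunits are made from nuclear genes and imported. Fat cells use the chain for ATP supply and, in brown fat, for heat.

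Array medians lay from 2.82 to 2.86 in BAT, from 3.00 to 3.06 in liver, from 3.13 to 3.18 in eWAT and from 3.65 to 3.73 in iWAT, and the lowest correlation between 2 arrays across genes was 0.939, in iWAT. *Gpr146* itself was lower in every knockout mouse than in every wild-type mouse of each tissue. Its difference was -1.77 in liver and -1.53 in eWAT, with adjusted p = 6.55e-06 and 0.00823 from limma, and -1.55 in iWAT and -1.16 in BAT, with adjusted p = 0.221 and 0.0727. Hepatocyte markers filled the liver arrays, with a mean of 11.3 over 9 genes in every mouse, adipocyte markers the white fat arrays, with means from 9.06 to 10.09 over 10 genes, and *Ucp1* measured 11.03 to 11.59 in BAT.

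Most complex I genes were higher in the knockout in all 3 fat depots, and in liver they were divided. The mean was higher in the knockout for 22 of the 36 genes in liver, 28 in BAT, 30 in eWAT and 33 in iWAT. Over all genes of the same tables the shares with a higher mean were 53.1% in liver, 50.8% in BAT, 56.5% in eWAT and 53.2% in iWAT. The median difference of the 36 genes was 0.02 in liver, 0.08 in BAT, 0.21 in eWAT and 0.25 in iWAT, beside a median over all genes of 0.01, 0.00, 0.03 and 0.02. Single genes reached larger sizes, such as 0.65 for *Ndufa5* in eWAT. The 4 tables were deposited apart and their normalization is not given, so whether the depots differ was not tested.

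**Figure D1:**
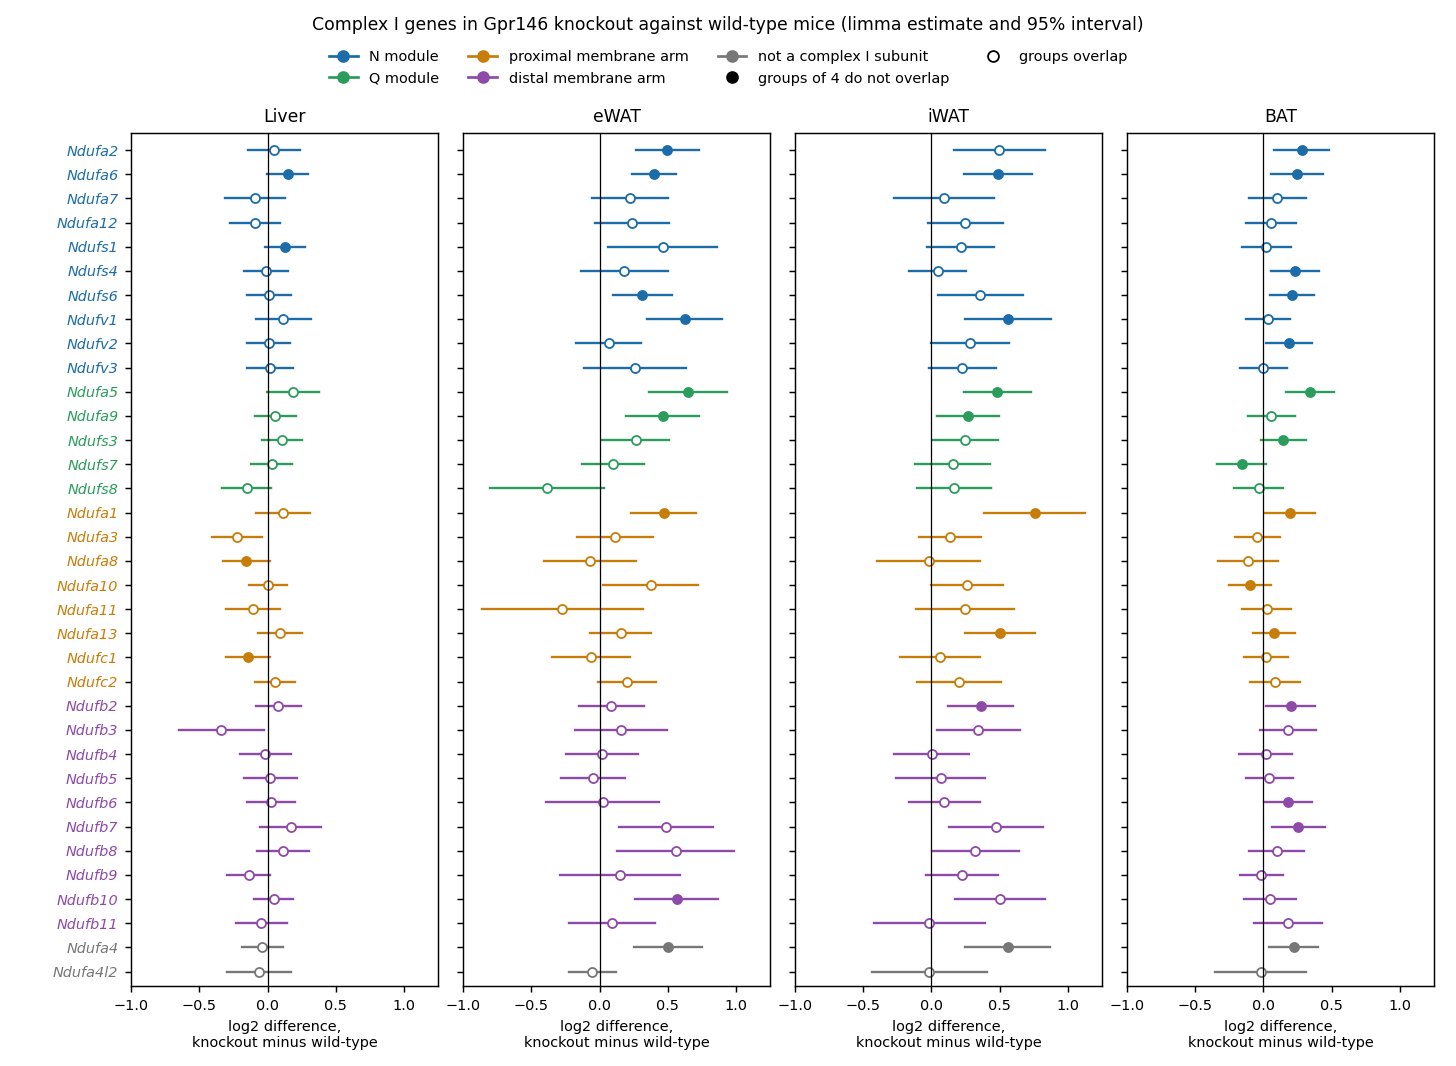
Log2 difference between knockout and wild-type (x axis) for 35 of the 36 genes (y axis, coloured by part of complex I) in liver, eWAT, iWAT and BAT, with the limma estimate as a point and its 95% confidence interval as a line; filled points mark genes whose 4 knockout and 4 wild-type values do not overlap. Most points lie right of 0 in the fat depots, *Ndufa5* lies at 0.65 and *Ndufv1* at 0.62 in eWAT, and *Ndufs8* is farthest left in eWAT.

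In eWAT, 9 of the 36 genes rose past the threshold of limma (adjusted p below 0.05 over all genes) and 0 fell. Over all genes, 4.57% were called higher and 10.7% lower in this depot, and after quantile normalization 7.43% and 7.75%. Among them were *Ndufa5* and *Ndufa9* of the Q module, *Ndufv1*, *Ndufa2* and *Ndufa6* of the N module, *Ndufa1* and *Ndufb10* of the membrane arm, and *Ndufa4*. The groups did not overlap for the 9 and for *Ndufs6*, a zinc-binding N module subunit, which makes 10 higher and 0 lower, where the shares over all genes were 8.63% and 13.0%. *Ndufa9* and *Ndufs6* were named after their values were seen. The number called depended on single mice, and so did the share over all genes. It was 5 without wild-type mouse 2, without wild-type mouse 4 or without knockout mouse 1, and 16 without knockout mouse 3. In the same order, 1.54%, 1.65%, 2.38% and 4.45% of all genes were called higher. *Ndufa5*, *Ndufv1*, *Ndufa2* and *Ndufa6* were called whichever array was left out.

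The core subunit genes differed widely from each other in eWAT. *Ndufv1*, the subunit that binds NADH and the flavin, measured 6.82, 6.70, 6.88 and 6.52 in wild-type and 7.52, 7.13, 7.22 and 7.54 in knockout mice. Each knockout mouse lay above each wild-type mouse. It rose by 0.62 ± 0.12 (adjusted p = 0.0133 from limma), a fold of 1.54.

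*Ndufs1*, the large iron-sulfur subunit of the N module, did not pass the test. It measured 4.80, 4.57, 4.74 and 4.57 in wild-type and 5.42, 4.95, 4.66 and 5.49 in knockout mice. Knockout mouse 3 fell among the wild-type mice, and the other knockout mice were above them. The difference was 0.46 with an interval from 0.06 to 0.86 (limma adjusted p = 0.114). *Ndufs3*, *Ndufs7* and *Ndufv2*, a structural subunit of the Q module and a pair of iron-sulfur subunits, differed by 0.26, 0.10 and 0.07, and their groups overlapped.

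*Ndufs8*, an iron-sulfur subunit of the Q module, had the lowest difference of all 36 genes in eWAT. It measured 7.16, 7.12, 7.16 and 6.89 in wild-type mice and 6.78, 6.89, 6.09 and 7.04 in knockout mice. Knockout mouse 3 was lowest by a wide margin, and knockout mouse 4 lay within the wild-type range. The difference was -0.38, with an interval from -0.80 to 0.04 (limma adjusted p = 0.202). *Ndufs8* and *Ndufv1* lie on the same chromosome, with 8 protein-coding genes between them in the RefSeq annotation of GRCm38.p6.

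Among the supernumerary subunits in eWAT, *Ndufa5* and *Ndufb10* had the widest differences of those called. *Ndufa5*, a Q module subunit, measured 5.50, 5.31, 5.41 and 5.10 in wild-type and 6.12, 5.66, 6.10 and 6.05 in knockout mice. The lowest knockout mouse was mouse 2, and it was still above every wild-type mouse. *Ndufa5* rose by 0.65 ± 0.13 (adjusted p = 0.0129 from limma) and *Ndufb10*, of the distal membrane arm, by 0.57 ± 0.14 (adjusted p = 0.0235). *Ndufa6*, an N module subunit that holds an acyl carrier protein, had a smaller difference of 0.40, but its knockout values of 7.46, 7.47, 7.49 and 7.57 and wild-type values of 7.12, 7.18, 7.11 and 6.99 were each close together. It passed the test with adjusted p = 0.011 from limma. *Ndufa2*, an N module subunit with a thioredoxin-like fold, and *Ndufa1*, a small subunit of the proximal membrane arm, rose by 0.50 and 0.47.

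By parts of the complex, in eWAT all 10 N module genes had a higher mean in the knockout, with a median difference of 0.29, and 3 were called. The Q module had 5 of 6 higher, a median of 0.36 and 3 called. In the proximal membrane arm 5 of 8 were higher, with a median of 0.14 and 1 called, and in the distal membrane arm 9 of 10, with a median of 0.12 and 1 called. The quartile ranges of the parts overlapped (0.23 to 0.45 in the N module, 0.14 to 0.60 in the Q module, -0.06 to 0.24 in the proximal arm and 0.04 to 0.40 in the distal arm), and no difference between them was tested. *Ndufa11*, *Ndufa8* and *Ndufc1* of the proximal arm had differences of -0.27, -0.07 and -0.06 with overlapping groups.

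Knockout mouse 3 held the lowest knockout value of 22 of the 36 genes in eWAT and lay below all 4 wild-type mice for 13 genes, while it lay above all of them for 13 others. The shares over all genes for this single mouse are not given here, so whether the split is particular to these genes was not tested. The mean over the 36 genes, taken relative to the wild-type mean, was 0.37, 0.17, -0.01 and 0.42 in knockout mice 1 to 4 and from -0.15 to 0.08 in the wild-type mice. Knockout mice 1, 2 and 4 were together above every wild-type mouse for 19 genes, where 11.8% of all genes were. Mouse 3 was below all wild-type mice for *Ndufs8*, *Ndufs7*, *Ndufs4*, *Ndufa4l2*, 4 proximal arm genes and 5 distal arm genes. It was above all of them for *Ndufa1*, *Ndufa5*, *Ndufv1* and the other genes that were called. The mtDNA-encoded genes of the same array were not low, as given below. Its mean of 12 B and T lymphocyte markers was 3.85, against 2.79 to 2.99 in the other eWAT arrays, and the part of this in its complex I values was not tested.

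**Figure D2:**
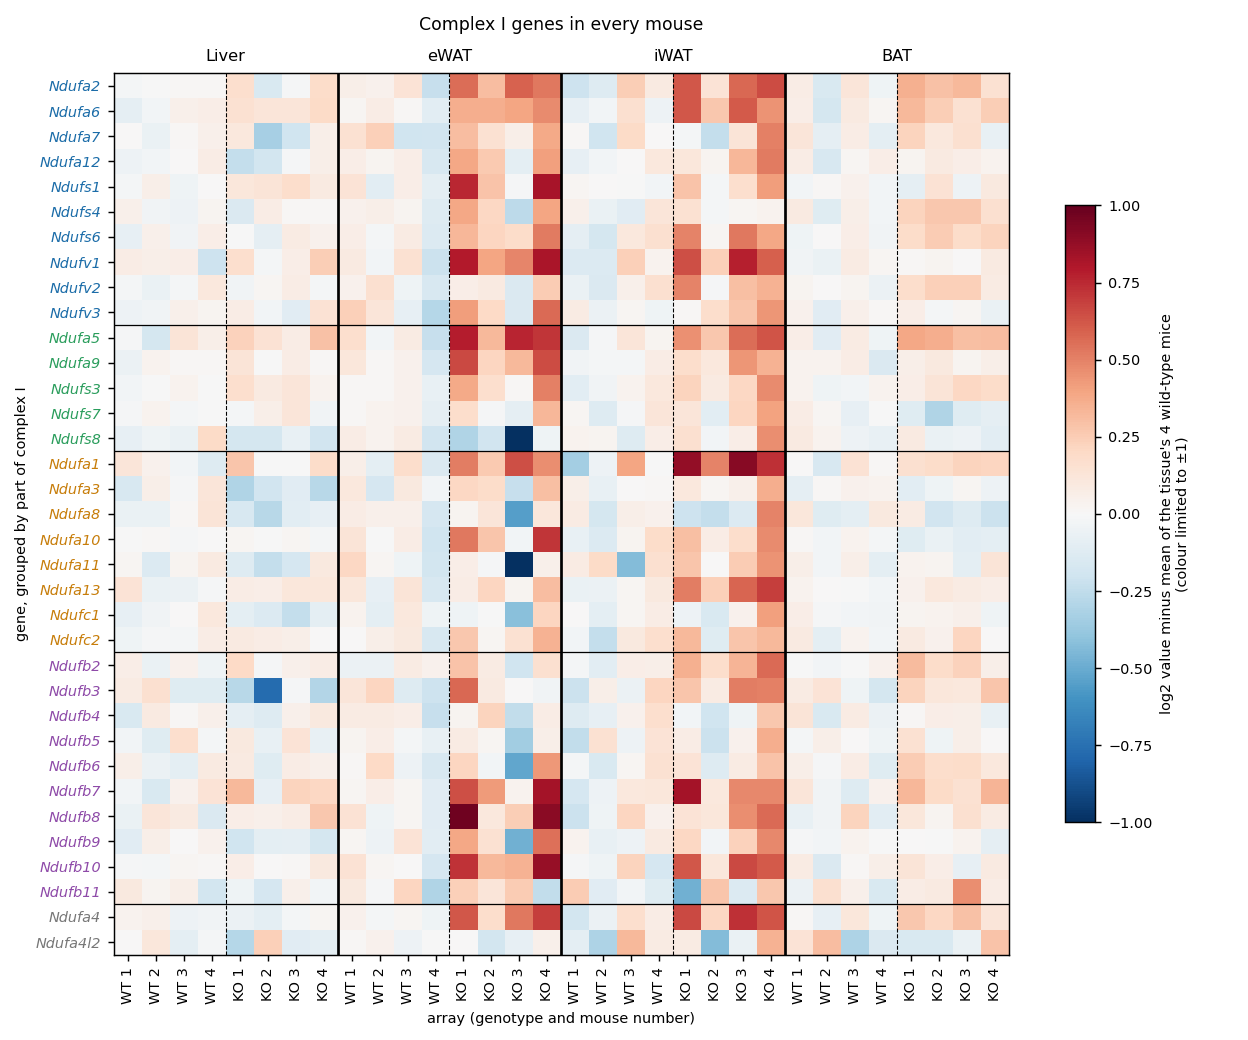
Each row is 1 gene (35 of the 36), grouped by part of complex I, and each column 1 array; colour gives the log2 value minus the mean of the tissue's 4 wild-type mice, limited to the range from -1 to 1. Red prevails in the knockout columns of eWAT and iWAT apart from knockout mouse 2 of iWAT, while knockout mouse 3 of eWAT holds both red and blue, and the liver columns are pale.

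Markers of other cell types moved with genotype in eWAT. All 11 macrophage markers measured were lower in the knockout and 10 were called by limma, and their mean lay between 8.54 and 8.75 in wild-type mice and at 5.80, 8.26, 6.67 and 6.05 in knockout mice 1 to 4. Of 10 adipocyte markers, 9 were called higher and 1, *Lep*, lower, with a median difference of 0.56, and their mean lay between 9.06 and 9.42 in wild-type and between 9.69 and 10.04 in knockout mice. Of 6 fibroblast and progenitor markers 0 had a higher mean and 5 were called lower, with means of 8.18 to 8.47 in wild-type mice and 7.13, 8.06, 7.13 and 7.17 in knockout mice 1 to 4. Of 5 mesothelial markers 0 had a higher mean and 2 were called lower. The mean of 5 endothelial markers lay between 7.48 and 7.59 in wild-type and between 7.63 and 7.87 in knockout mice, with 1 called higher. The complex I genes had a median of 0.21. Knockout mouse 2, whose macrophage mean was near the wild-type range, had complex I values above those of all wild-type mice for 22 genes. The same share over all genes is not given here. Without this mouse, 11 genes were called higher, where 7.81% of all genes were. The part of cell type content in the complex I differences was not tested.

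**Figure D3:**
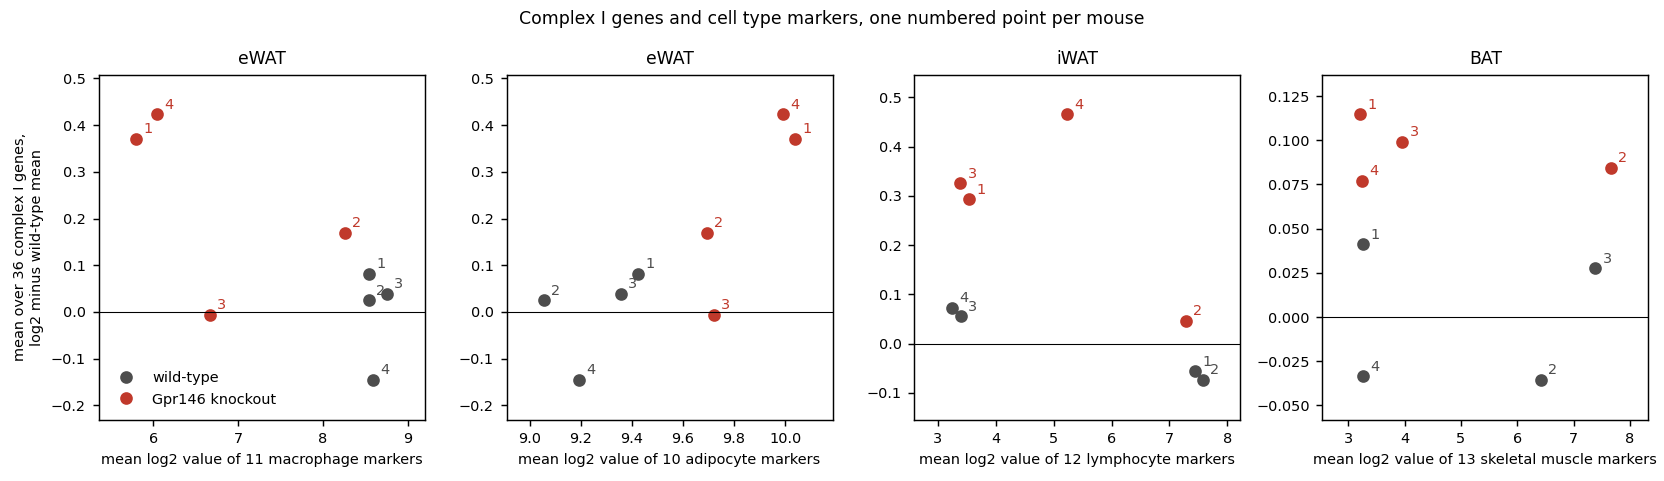
Mean of the 36 complex I genes relative to the wild-type mean (y axis, log2) against the mean log2 value of marker genes (x axis) in single mice, numbered within genotype: macrophage and adipocyte markers in eWAT, lymphocyte markers in iWAT and skeletal muscle markers in BAT. In eWAT the knockout mice have lower macrophage and higher adipocyte means, and knockout mouse 3 lies at -0.01 on the y axis. In BAT the 4 knockout mice lie between 0.08 and 0.11. Of these, only knockout mouse 2 has a high muscle mean (7.66), and the others have means of 3.21 to 3.96.

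In iWAT the same direction was seen in more genes, but 0 of the 36 passed the adjusted threshold, as did 0% of all genes in either direction. The smallest adjusted p of a complex I gene was 0.221. At an unadjusted p below 0.05 from limma, 16 genes were higher and 0 lower, where 7.09% of all genes were higher. The groups did not overlap for 9 genes, all higher, beside 4.29% higher and 3.86% lower over all genes. Among them were *Ndufv1*, *Ndufa1*, *Ndufa5*, *Ndufa6*, *Ndufa9*, *Ndufa13*, *Ndufb2* and *Ndufa4*, of which *Ndufa9* and *Ndufb2* were named after their values were seen.

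*Ndufa1* measured 5.79, 6.08, 6.53 and 6.13 in wild-type and 7.01, 6.63, 7.05 and 6.86 in knockout mice, a difference of 0.76 with an interval from 0.39 to 1.12 (limma adjusted p = 0.221). Every knockout mouse lay above every wild-type mouse. *Ndufa13*, a proximal arm subunit also known as GRIM-19, differed by 0.50 and *Ndufv1* by 0.56.

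All 7 core subunit genes had a higher mean in the knockout in iWAT, among them *Ndufs8* and *Ndufs7* with 0.16 each, *Ndufs1* with 0.21, *Ndufs3* with 0.25 and *Ndufv2* with 0.28. The lowest of the 36 differences was that of *Ndufa8*, an intermembrane space subunit, at -0.02, with an interval from -0.40 to 0.36. The medians of the 4 parts lay close together, between 0.22 in the proximal arm and 0.27 in the distal arm.

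Knockout mouse 2 of iWAT stood nearest to the wild-type mice. It had the lowest knockout value for 34 of the 36 genes, and its mean over the genes was 0.05, against 0.29, 0.33 and 0.47 in the other knockout mice and -0.07 to 0.07 in wild-type. Without it the groups did not overlap for 21 genes and 3 were called higher, among them *Ndufa13* and *Ndufa4*, where 11% and 0.446% of all genes were. The mean of 12 B and T lymphocyte markers was 7.29 in this mouse, 7.45 and 7.58 in wild-type mice 1 and 2, 5.24 in knockout mouse 4 and 3.25 to 3.54 in the other 4 mice. The part of lymphocyte content was not tested. In the 4 mice with low lymphocyte values (wild-type 3 and 4, knockout 1 and 3) the median complex I difference was 0.19, with 30 of 36 genes higher and 1 called, beside 0.832% of all genes called higher. With the lymphocyte mean as a covariate the median was 0.23, and 2 genes were called, among them *Ndufa1* with adjusted p = 0.0462 from limma, where 0.243% of all genes were called higher. All 11 macrophage markers had a lower mean in the knockout and 0 were called. Their mean was 6.68 in knockout mouse 2, inside the wild-type range of 6.48 to 7.15, and 5.45 to 5.89 in the other knockout mice. Of 8 brown adipocyte markers 7 had a higher mean, with a median difference of 0.33 and 0 called. The part of these markers in the complex I differences was not tested.

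In BAT the differences were smaller and even between mice. 0 of the 36 genes passed the adjusted threshold, where 0.00406% of all genes were called higher and 0.0243% lower. At an unadjusted p below 0.05 from limma, 11 genes were higher and 0 lower, where 5.25% of all genes were higher. The groups did not overlap for 15 genes, 13 higher and 2 lower, against 3.31% and 3.92% of all genes. The mean over the 36 genes was 0.11, 0.08, 0.10 and 0.08 in knockout mice 1 to 4 and lay between -0.04 and 0.04 in wild-type mice.

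*Ndufa5* had the largest difference in BAT. It measured 7.77, 7.59, 7.78 and 7.66 in wild-type and 8.08, 8.07, 8.0 and 8.01 in knockout mice. The groups did not overlap, and the knockout mice lay close together. The difference was 0.34, with an interval from 0.17 to 0.51 (limma adjusted p = 0.136). *Ndufa2* differed by 0.28, *Ndufb7*, a distal arm subunit of the intermembrane space, by 0.25, *Ndufa6* by 0.24, *Ndufs4*, an N module subunit whose loss causes a mitochondrial encephalopathy, by 0.23, and *Ndufs6* by 0.21.

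Among the core genes, *Ndufv1*, which had risen in eWAT, did not pass the test in BAT. It measured 9.41, 9.39, 9.53 and 9.47 in wild-type and 9.47, 9.48, 9.45 and 9.54 in knockout mice. The groups were interleaved. Its difference was 0.03, with an interval from -0.13 to 0.20 (limma adjusted p = 0.899). *Ndufv2* and *Ndufs3* were non-overlapping and higher, by 0.19 and 0.15, and *Ndufs1* and *Ndufs8* differed by 0.02 and -0.03.

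2 genes were lower in every knockout BAT sample, against the direction of most of the others. As a share of the complex I genes, these 2 are near the 3.92% of all genes lower without overlap in BAT. At an unadjusted p below 0.05 from limma, 0 complex I genes were lower there. *Ndufs7*, a core subunit next to the ubiquinone site, measured 9.81, 9.75, 9.65 and 9.73 in wild-type and 9.61, 9.43, 9.61 and 9.64 in knockout mice. The gap between the groups was narrow, and knockout mouse 2 was lowest. *Ndufa10*, a proximal arm subunit related to nucleoside kinases, measured 10.31, 10.27, 10.33 and 10.28 in wild-type and 10.17, 10.23, 10.19 and 10.20 in knockout mice. Their differences were -0.16 and -0.10, and neither passed the adjusted test (limma adjusted p = 0.455 and 0.612).

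Skeletal muscle markers were high in some BAT samples. Their mean over 13 genes was 6.42 and 7.39 in wild-type mice 2 and 3 and 7.66 in knockout mouse 2, and 3.21 to 3.96 in the other 5 mice. Without these 3 arrays the median complex I difference was 0.10, with 25 of 36 genes higher, and with the muscle mean as a covariate it was 0.08. Of 8 brown adipocyte markers, 7 had a lower mean in the knockout and 0 were called, with a median difference of -0.29. The part of muscle or brown adipocyte content in the complex I differences was not tested.

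In liver the complex I genes were split between both directions. 0 passed the adjusted threshold, where 0.162% of all genes were called higher and 0.499% lower. At an unadjusted p below 0.05 from limma, 0 were higher and 2 lower, *Ndufa3* with -0.22 and *Ndufb3* with -0.34, where the shares of all genes were 5.79% and 7.48%. The groups did not overlap for 4 genes, *Ndufa6* and *Ndufs1* higher and *Ndufa8* and *Ndufc1* lower, beside 3.62% and 4.16% over all genes. In each direction the share of the 36 is near that of all genes. The mean over the 36 genes was 0.01, -0.06, 0.02 and 0.04 in knockout mice 1 to 4, around wild-type values of -0.01 to 0.01.

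*Ndufs1* measured 4.64, 4.71, 4.61 and 4.66 in wild-type and 4.77, 4.78, 4.83 and 4.74 in knockout livers, a difference of 0.13 with an interval from -0.02 to 0.27. *Ndufa8* measured 6.70, 6.71, 6.78 and 6.90 in wild-type and 6.61, 6.49, 6.66 and 6.69 in knockout livers, a difference of -0.16 with an interval from -0.33 to 0.02. In both genes the groups were narrowly apart. The other core genes lay between -0.15 for *Ndufs8* and 0.11 for *Ndufv1*.

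4 genes had higher values in every knockout mouse than in every wild-type mouse in all 3 fat depots: *Ndufa1*, *Ndufa4*, *Ndufa5* and *Ndufa6*. Of all 24646 genes 30 did so, or 0.122%. In their order as named, the BAT differences were 0.20, 0.22, 0.34 and 0.24. Those of iWAT were 0.76, 0.56, 0.48 and 0.49, and those of eWAT 0.47, 0.50, 0.65 and 0.40. In liver *Ndufa6* was also higher without overlap, by 0.15, and *Ndufa4* had a difference of -0.04. A further 7 genes did so in 2 fat depots, 6 in 1 and 19 in none, where the shares of all genes were 1.60%, 12.7% and 85.6%. The 6 in 1 depot are a share near that of all genes. By their means, 24 of the 36 were higher in all 3 fat depots and 2, *Ndufa8* and *Ndufa4l2*, in none. Of the genes without overlap and higher, eWAT and iWAT shared 7, of 10 and 9. eWAT and BAT shared 6, of 10 and 13, and iWAT and BAT shared 6, of 9 and 13. Over all genes, the shares common to 2 given depots, and those higher by mean in all 3, are not given here. Whether this sharing is particular to these genes was not tested. Mouse numbers recur across tissues, and the labels do not say whether the same number is the same mouse.

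**Figure D4:**
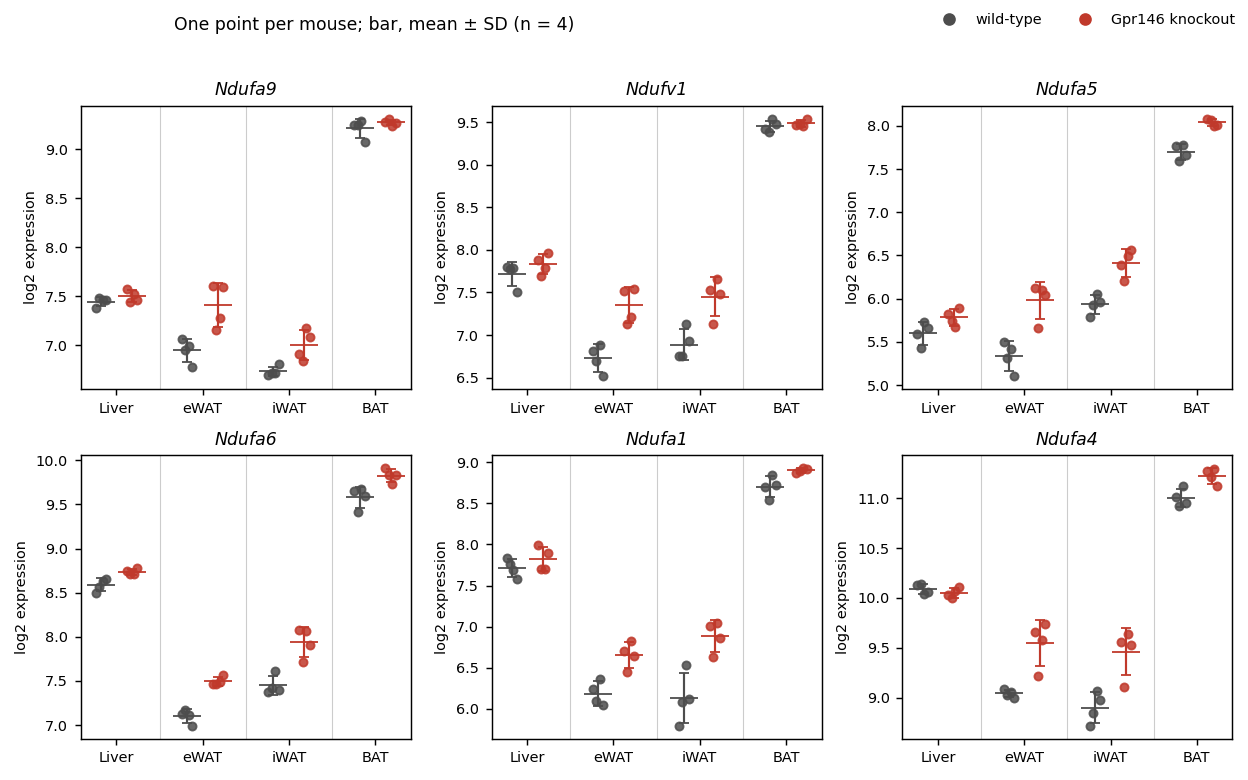
Log2 expression (y axis) of 6 genes in liver, eWAT, iWAT and BAT (x axis), with a point for each mouse and bars for mean ± SD of 4 mice. The tissues were deposited as separate tables whose normalization is not given, so levels should be compared only between the genotypes of a tissue. The knockout points lie above all wild-type points in eWAT and iWAT for all 6 genes, and in BAT for *Ndufa5*, *Ndufa6*, *Ndufa1* and *Ndufa4* but not for *Ndufa9* and *Ndufv1*.

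The sequences before the start sites of these 4 genes are shown because their groups were apart in all 3 fat depots. They are the 250 bases before the annotated start, 5′ to 3′ on the gene's own strand, from RefSeq (GRCm38.p6). All 4 genes are on the minus strand, at chr6:24527691-24527940 for *Ndufa5*, chr15:82354292-82354541 for *Ndufa6*, chrX:37191239-37191488 for *Ndufa1* and chr6:11907451-11907700 for *Ndufa4*. *Ndufa5* has a second annotated start, and the window of the one further upstream is printed. Capitals mark the NRF1 motif (GCGCA, any base, GCGC), the core of the site of a factor known for nuclear genes of the respiratory chain, and GGGCGG, the SP1 box, each on either strand.
Ndufa5: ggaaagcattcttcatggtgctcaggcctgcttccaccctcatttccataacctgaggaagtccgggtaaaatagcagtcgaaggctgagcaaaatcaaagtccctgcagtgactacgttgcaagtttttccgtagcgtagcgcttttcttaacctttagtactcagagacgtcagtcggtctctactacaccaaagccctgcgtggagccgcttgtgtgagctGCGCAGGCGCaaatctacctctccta
Ndufa6: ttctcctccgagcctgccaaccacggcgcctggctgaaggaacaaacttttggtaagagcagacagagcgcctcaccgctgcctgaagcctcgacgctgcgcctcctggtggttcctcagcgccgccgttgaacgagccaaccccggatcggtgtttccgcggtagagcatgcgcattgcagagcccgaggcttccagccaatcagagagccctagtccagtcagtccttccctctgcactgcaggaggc
Ndufa1: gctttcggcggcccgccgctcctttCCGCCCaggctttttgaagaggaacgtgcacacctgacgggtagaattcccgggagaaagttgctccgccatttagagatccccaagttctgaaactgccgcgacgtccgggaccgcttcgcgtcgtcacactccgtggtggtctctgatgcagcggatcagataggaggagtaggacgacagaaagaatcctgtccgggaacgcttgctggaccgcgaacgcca
Ndufa4: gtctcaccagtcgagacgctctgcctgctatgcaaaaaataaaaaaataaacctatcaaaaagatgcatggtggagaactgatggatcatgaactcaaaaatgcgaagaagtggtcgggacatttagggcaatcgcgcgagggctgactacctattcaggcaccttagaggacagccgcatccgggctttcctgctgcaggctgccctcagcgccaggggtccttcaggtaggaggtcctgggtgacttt
The *Ndufa5* window holds an NRF1 match whose first base lies at -26 from the start, the *Ndufa1* window an SP1 match at -225, and the printed bases of *Ndufa6* and *Ndufa4* hold neither. In *Ndufa6* an NRF1 match begins at base 24 after the start.

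Promoter windows of 300 bases, 250 before and 50 after the start, were on hand for 31 of the 36 genes (33 windows). The NRF1 letters were in 7 of the 33 windows (21.2%), those of *Ndufa5* (both starts), *Ndufa6*, *Ndufs6*, *Ndufa8*, *Ndufa11* and *Ndufb4*, and in 4.6% of all 32851 windows. Both *Ndufa5* windows overlap and hold the same NRF1 site, so the matches lie in 6 genes. The YY1 motif (AA, any base, ATGG, then CGGC) was in 4 windows (12.1%), of *Ndufa9*, *Ndufs4*, *Ndufs6* and *Ndufs7*, and in 0.986% of all. GGGCGG was in 45.5% and 35.7%, CCGGAAG, the core bound by GABP, in 12.1% and 8.86%, and AAGGTCA, the site of the estrogen-related receptors, in 6.06% and 4.72%. Both strands were searched, and each motif was counted on its own where matches shared bases. The windows of these genes held 58.1% G and C, against 53.8% over all windows. Genes with an NRF1 match had differences in eWAT from 0.65 for *Ndufa5* to -0.27 for *Ndufa11*.

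Of the 7 complex I genes of mtDNA, 3 rose in eWAT. All 7 were higher in every knockout mouse than in every wild-type mouse, and *ND3*, *ND4L* and *ND6* were called, with differences of 0.45, 0.33 and 1.07. *ND6*, the only one of the 7 transcribed from the light strand, measured 8.21, 8.15, 8.10 and 8.17 in wild-type and 9.13, 9.01, 9.98 and 8.80 in knockout mice (adjusted p = 0.0142 from limma). Knockout mouse 3, low for many nuclear genes, was the highest. *ND1*, *ND2*, *ND4* and *ND5* differed by 0.13 to 0.16.

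*ND6* differed by 1.03 in iWAT and by 0.83 in BAT as well. In BAT it measured 9.81, 9.27, 9.87 and 9.35 in wild-type and 10.38, 10.42, 10.61 and 10.20 in knockout mice (limma adjusted p = 0.0983), while the other mtDNA genes differed by -0.07 to 0.06 and *ND5* was lower without overlap. In iWAT all 7 had a higher mean, 3 of them without overlap and 0 called. In liver 6 of 7 had a higher mean, with a median of 0.04 and 0 called. Values of these genes other than *ND6* lay above 10 in each table, and whether the probes separate the strands is not given in the sources used here.

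Genes outside the complex showed how far the pattern reached. Of 49 genes of complexes II to V, 8 were called higher and 0 lower in eWAT, where 4.57% and 10.7% of all genes were. By mean 38 were higher there, with a median of 0.16. In iWAT 46 were higher by mean, with a median of 0.28. There 14 were higher without overlap, where 4.29% of all genes were. Of 11 assembly factors measured, the proteins that put complex I together without staying in it, 0 were called in any tissue, and the median difference was -0.01 in liver, -0.06 in BAT, 0.14 in eWAT and -0.05 in iWAT. Of 76 mitochondrial ribosomal protein genes, 1 was called higher and 2 lower in eWAT, beside 4.57% and 10.7% of all genes, with a median of 0.04. In BAT the 79 cytosolic ribosomal protein genes had a median of 0.15, above the 0.08 of the complex I genes, with 69 higher by mean. Of these 79 genes, 0 were called, and 13 were higher and 1 lower without overlap, beside 3.31% and 3.92% of all genes. No difference between these lists was tested.

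**Figure D5:**
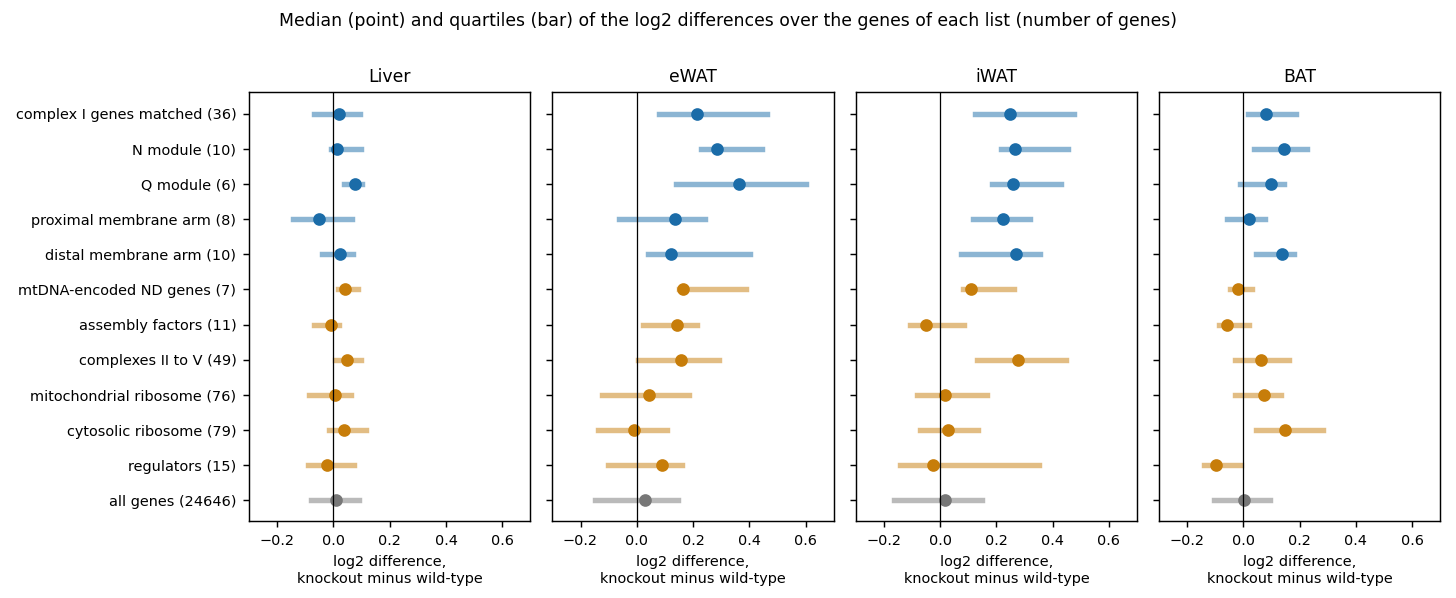
Median (point) and quartiles (bar) of the log2 differences between knockout and wild-type (x axis) over the genes of each list (y axis, number of genes in brackets) in each tissue, with all genes at the bottom. The complex I genes have medians of 0.21 in eWAT and 0.25 in iWAT, near those of complexes II to V, and in BAT the cytosolic ribosomal genes have the highest median, 0.15.

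Among 15 regulators of mitochondrial gene expression, *Ppara*, a nuclear receptor for fatty acids, was called higher in eWAT, with a difference of 0.49 (adjusted p = 0.0205 from limma). This 1 call is a share near the 4.57% of all genes called higher there, and 0 other regulators were called in any tissue. *Ppargc1a*, the coactivator best known for mitochondrial biogenesis, measured 3.61, 3.60, 3.91 and 3.57 in wild-type and 4.68, 3.78, 3.69 and 5.30 in knockout eWAT. Its difference there was 0.69, and it was not called. Knockout mice 1 and 4, the 2 mice with the highest complex I means, were the highest for it too. The other knockout mice lay within the wild-type range. In BAT *Ppargc1a* was lower in every knockout mouse, with 7.26, 8.22, 6.82 and 7.32 in wild-type and 6.08, 6.02, 6.44 and 6.51 in knockout mice, a difference of -1.14 with an interval from -1.70 to -0.58 (limma adjusted p = 0.13). *Ppargc1a* and *Ppara* were named after their values were seen. In the same BAT samples 28 of the 36 complex I genes had a higher mean. A link between *Ppargc1a* and the complex I values was not tested in any depot. *Nrf1* had differences of -0.01 in BAT, 0.01 in eWAT and -0.17 in iWAT, with overlapping groups in each.

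The genes beside the subunits behaved unlike each other. *Ndufa4* was called higher in eWAT and did not overlap in iWAT and BAT. *Ndufa4l2*, a paralogue known to be raised by hypoxia, measured 4.84, 4.87, 4.78 and 4.83 in wild-type and 4.83, 4.65, 4.75 and 4.88 in knockout eWAT and differed by -0.05 there and by -0.02 to -0.06 in the other tissues. For *Ndufab1* the values were 0.13 in BAT, 0.27 in eWAT and 0.02 in iWAT, with overlapping groups in each. In liver it was lower in every knockout mouse, by 0.18 on average (limma adjusted p = 0.313). With the 34 subunits and *Ndufab1* alone, 8 genes were called in eWAT and the median was 0.23 there and 0.09 in BAT.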

How the data were processed

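The authors hybridized biotin-labelled total RNA to Affymetrix Mouse Gene 2.1 ST arrays and deposited 1 table of log2 values per tissue, with a value for each gene symbol on each of 32 arrays in all. The normalization, the summary of probes and the software are not given in the sources used here. The deposited ID was not a whole number for 840 genes, among them *Ndufa11*, *Ndufa12*, *Ndufs1* and *Ndufs6*. Whether values of several probe sets were averaged for these or for other genes is not given. 1 or 2 entries per table without a usable gene name were left out, which left 24646 genes. Genotype and tissue came from the sample labels and column names. Precision is limited by the number of arrays, and p-values measure the spread between 4 mice per group.

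Knockout and wild-type mice were compared within each tissue with limma 3.58.1 (R 4.3.3; lmFit and eBayes), with p-values adjusted by Benjamini-Hochberg over all genes, a threshold of 0.05 and 95% confidence intervals. Groups do not overlap where all 4 values of one lie above all 4 of the other, for which the two-sided exact permutation p is 0.0286, the smallest that 4 against 4 can give. The procedure was tested on simulated data. The members and gene lists were chosen with earlier results of these data known. Named were *Gpr146*, the 7 core genes, *Ndufa4*, *Ndufa4l2* and *Ndufab1* in every tissue, and per tissue the 8 members with the smallest p, the largest rise and fall, and any member without overlap against the majority. 1 member is counted throughout but is not reported by name here. Any further gene was picked with its values in view. Alternatives were quantile normalization, equal array medians, a robust prior with a trend, array weights, the omission of dim genes (mean below the median of genes, which removed 1 member, *Ndufa4l2*, in liver), the mouse number as a replicate block, the methods' t-test before and after adjustment, complex I subunits only with *Ndufab1*, each array left out, and lymphocyte or muscle markers as a covariate. Leaving out the arrays with a lymphocyte (iWAT) or muscle (BAT) marker mean above 5 was added after seeing the data. Promoter sequences came from RefSeq, with symbols matched for 36 of 36 genes. Figures were drawn with matplotlib 3.10.9.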

Additional observations from a re-analysis of the deposited data

Results flagged for a closer look

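Of 148 groups of 4 mice (the named genes in each tissue and the mean over the 36 genes), 9 held a mouse far from the other 3 by Dixon's test (6.08%), and chance alone marks about 5%. In liver, *Ndufs8* was high in wild-type mouse 4 (7.38) and in knockout mouse 3 (7.12), and *Ndufv1* was low in wild-type mouse 4 (7.51). In eWAT, *Ndufa5* was low in knockout mouse 2 (5.66) and *Ndufs8* in wild-type mouse 4 (6.89). In iWAT, *Ndufa8* was low in wild-type mouse 2 (5.92) and high in knockout mouse 4 (6.59), and *Ndufb10* was low in knockout mouse 2 (5.74). In BAT, *Ndufs7* was low in knockout mouse 2 (9.43).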

How the results depend on the processing

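Of 432 counts and medians under alternatives, 393 stayed within 1.5 times the reported count or within the spread of the wild-type mice, and of 1191 values of named genes 0 reversed a call. 31 values of uncalled genes changed sign. Genes called higher in eWAT were 18 after quantile normalization, 15 with array weights and 0 after adjustment of the methods' t-test (11 before it), and 5 to 16 with 1 array left out. In the same order, 7.43%, 7.99%, 0.0771% (11.9%) and 1.54% to 7.81% of all genes were called higher. Quantile normalization also raised the number higher without overlap in eWAT to 21, where 10.5% of all genes were, and the median to 0.38. With 1 array left out, 10 to 19 were higher and 0 to 1 lower without overlap, and the median was 0.15 to 0.34. Over all genes these shares were 10.4% to 14.6% and 14% to 18%. In iWAT the median was 0.40 after quantile normalization. There, 15 genes were called by the unadjusted methods' t-test, 2 with the lymphocyte covariate, 1 without the 4 arrays high in lymphocyte markers and 0 to 3 with 1 array left out. Of all genes, 6.9%, 0.243%, 0.832% and 0% to 0.446% were called higher, in that order. Without those 4 arrays, groups of 2 mice were apart for 22 genes higher and 3 lower, where 28.3% of all genes were apart in each direction. With 1 array left out, 9 to 21 were apart and higher, where 5.17% to 11% of all genes were, and the median was 0.18 to 0.32. In BAT, the unadjusted methods' t-test called 13 higher and 2 lower, where 5.1% and 6.27% of all genes were. After quantile normalization of BAT, 1 gene was lower without overlap, where 3.31% of all genes were. In liver the unadjusted methods' t-test called 3 higher and 4 lower, where 5.51% and 6.26% of all genes were. Quantile normalization of liver left a median of 0.075, with 5 genes higher and 0 lower without overlap, where 3.96% and 3.5% of all genes were. Equal array medians left a median of 0.00075 and 1 gene higher without overlap, where 2.63% of all genes were. With 1 array left out, 2 to 4 were higher and 2 to 5 lower without overlap, and the median was -0.0012 to 0.038. Over all genes these shares were 5.16% to 6.34% and 5.26% to 6.87%. The cause of these changes was not tested. Same-numbered mice of both genotypes did not deviate together in every pair (correlations of -0.38 to 0.67 over all tissues). With the mouse number as a replicate block, 8 genes were called in eWAT (*Ndufa9* was lost), where 3.87% of all genes were called higher. In the other tissues 0 were called, and no other count changed by more than 1.5 times. 2 arrays per group in the lymphocyte subset are assumed to vary alike, and 4 mice per group limit what the adjusted test could call.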
